A study of Mus musculus with 12 samples.

Results

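Colon tumors of APCmin/+ mice were compared with wild-type crypts of the small intestine by bulk RNA-seq, in libraries that all kept ieCtnnb1, an upstream enhancer of *Ctnnb1*. The members were taken by their labels, 3 tumor libraries and 3 crypt libraries, which make 6 of the 12 samples in the series. The series was built to ask what loss of ieCtnnb1 does in crypts and in tumors, and the other 6 libraries come from the same tissues with the enhancer deleted. The crypts were from untreated adult wild-type mice, and were released from opened small intestine with EDTA and separated from villi by filtering. The tumors were colon tumor tissue of untreated adult APCmin/+ mice, which carry a germline nonsense mutation in *Apc*, and their epithelium was not isolated. The methods give a C57BL/6 background for the colony. The study describes its replicates as biological and counts these groups in mice, although the labels do not state that each library came from a separate animal.

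Organ, disease, *Apc* genotype and whole tissue against isolated crypts change together between these groups and cannot be told apart. Normal colon was not analysed here. The tumor and crypt libraries were also normalized in separate tables, so levels set across the groups are descriptions, with no test and no p-value. What the comparison can show is which genes and cell type markers separate the tumor libraries from the crypt libraries, by how much, and whether all 3 libraries of a group share it.

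β-Catenin, the product of *Ctnnb1*, links cadherins to the cytoskeleton at cell junctions and is also the transcriptional effector of canonical Wnt signaling. Without a Wnt signal, a complex of APC, AXIN, GSK3 and casein kinase marks it for degradation, whereas Wnt ligands bound to Frizzled and LRP receptors stop that complex, and β-catenin then joins TCF/LEF factors on target genes. In the crypt this pathway maintains stem cells and Paneth cells, and many of its targets are inhibitors of the pathway itself.

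Levels are given as TPM, meaning that each deposited FPKM was divided by the sum of its library over genes outside the mitochondrial genome and scaled to 1000000. A difference is the mean of log2(TPM + 0.5) in tumors minus that in crypts, which understates the distance for genes of low level. Between 14457896 and 16156712 fragments lay on genes in each of the 6 libraries, and 1 fragment on a gene of 2000 bases was worth 0.0796 to 0.121 TPM. Before the rescaling, mitochondrial genes held 26.2%, 34.2% and 24.4% of the FPKM in crypts 1 to 3 and 4.38%, 5.88% and 5.46% in tumors 1 to 3. The crypt libraries were also more concentrated, with 13.6%, 16.9% and 25.4% of TPM in their 10 highest genes against 8.46%, 8.73% and 7.84% in tumors.

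Several libraries stood apart from their group. Tumor 3 held 411 TPM of *Xist*, the RNA of the inactive X chromosome, and 0 of the Y-linked *Ddx3y*, whereas the other 5 libraries held 0.0825 to 0.119 TPM of *Xist* and 22.6 to 38.8 of *Ddx3y*. Tumor 1 was low in the distal *Hoxd* genes, crypt 3 was high in α-defensins, and crypts 1 and 2 held stomach transcripts that crypt 3 nearly lacked. Their values are given with the genes concerned. Without tumor 1, 3402 genes were called higher and 758 lower by the rule given with the main counts, without tumor 3 the counts were 3288 and 709, and without crypt 3 they were 3212 and 757.

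Epithelial markers were abundant in both groups, as the labels of crypt and tumor would have it. *Krt8*, a keratin of simple epithelia, was at 4736, 5339 and 4159 TPM in crypts and 4951, 5200.0 and 4617 in tumors. *Epcam*, an epithelial adhesion molecule, was at 2259, 2269.7 and 1989 TPM in crypts and 2773, 2843 and 2511 in tumors. Neither gene differed by as much as the call requires, and the sign of both differences turned under some other scalings. A list of 20 epithelial genes shared by both organs had 1 called higher and 3 lower (2 to 4 lower over the alternatives given below). Its median of 0.33 was below 0 under the median of ratios. The list held 2.01%, 2.04% and 1.76% of TPM in crypts and 2.11%, 2.195% and 2.01% in tumors. By contrast *Hoxb13*, a transcription factor gene of the hindgut, was listed at 0 in all crypts and stood at 240.0, 349.6 and 336 TPM in tumors. *Car1*, a carbonic anhydrase of colonocytes, was at 0, 0 and 0.128 TPM in crypts and 231, 165 and 238 in tumors. Among these 6 libraries this colonic marker thus stood well above 0 only in tumors. The list of 25 colonocyte genes that holds *Car1* was divided, with 10 called higher, 5 lower and 10 neither.

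Of 54495 genes, 20307 reached a mean of 0.5 TPM over the 6 libraries. Because this mean takes in both groups, a gene near 0 in crypts could pass only through its tumor values, and the reverse. A gene was called when its log2 difference was at least 2 in size, or 4-fold, and all 3 libraries of a group lay above all 3 of the other. By this rule 3216 genes (15.8%) were higher in tumors and 714 (3.52%) were lower, and without the size limit 57.3% of genes had every tumor above every crypt and 9.7% every tumor below. Protein-coding genes made up 2502 of the higher and 565 of the lower calls. The median log2 difference of all genes was 0.81, so the whole distribution lay toward the tumors. List medians are to be read beside this value, and counts of calls in lists beside the 15.8% and 3.52%. The balance of the calls moved with the scaling. Higher genes were 81.8% of the calls as reported, 64.9% with median-of-ratios scaling (2064 higher and 1118 lower) and 57.0% with quantile normalization (1746 and 1317). Of the 3216 higher calls, 2064 were kept with the first and 1741 with the second, and of the 714 lower calls, 714 and 713 were kept. Such changes also moved the number of calls in many gene lists. A list's range over all alternatives of scaling, pseudocount, filter, center and left-out library is given where its maximum exceeds 1.5 times its minimum.

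**Figure D1:**
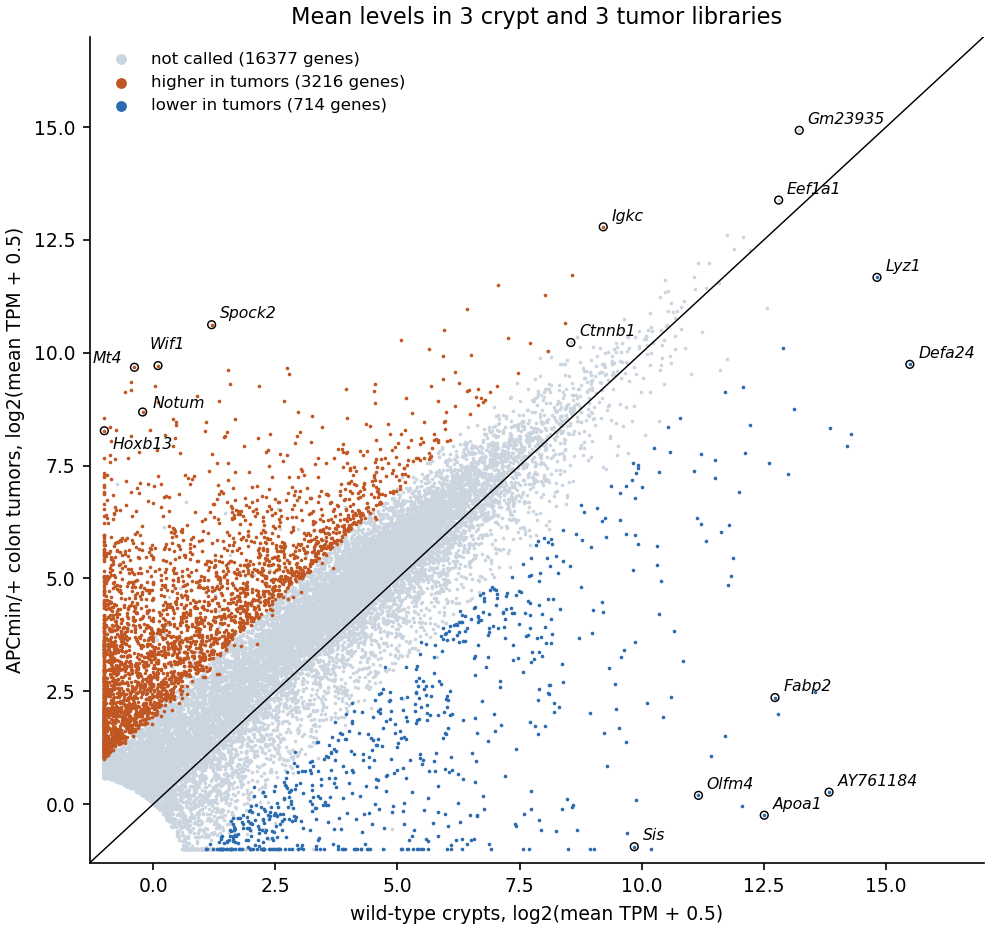
Mean level of each gene in the 3 crypt libraries (horizontal axis) and the 3 tumor libraries (vertical axis), both as log2(mean TPM + 0.5), with the line of equality. Orange points are the 3216 genes called higher in tumors and blue points the 714 called lower, and circled genes are named in the text. *Wif1* and *Mt4* lie at the upper left, and the Paneth and enterocyte genes *Defa24*, *Apoa1* and *Fabp2* at the right.

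Among protein-coding genes with at least 20 TPM in the higher group, the 12 with the largest rise in tumors included *Mt4*, *S100a9*, *Fn1*, *Wif1*, *Mmp10*, *S100a8*, *Spock2*, *Hoxb13*, *Stra6*, *Mgp* and *Notum*. *Mt4*, a metallothionein typical of squamous epithelium, was at 0, 0 and 0.8003 TPM in crypts and 625, 642 and 1188 in tumors, a log2 difference of 10.15. *Spock2*, a secreted matrix proteoglycan gene, was at 1.61, 2.09 and 1.67 TPM in crypts and 929.5, 1523 and 2270.4 in tumors (9.34). *Stra6*, the cell surface receptor for retinol-binding protein, was at 0, 0.137 and 0 TPM in crypts and 262, 321 and 399.5 in tumors (9.22). *Mgp*, a matrix inhibitor of calcification, was at 0.734, 0.168 and 0.671 TPM in crypts and 365, 470.3 and 1009.8 in tumors (9.14). In *Mt4*, *Spock2*, *Stra6* and *Mgp* the lowest tumor lay far above the highest crypt, and tumor 3 was the highest of the tumors.

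The 12 with the largest fall were *AY761184*, *Apoa1*, *Gm7849*, *Gm14851*, *Olfm4*, *Fabp1*, *Sis*, *Fabp2*, *Defa29*, *Defa32*, *Prap1* and *Enpp7*. With the exception of the stem cell gene *Olfm4*, they belong to Paneth cell defensins and to absorptive enterocytes of the small intestine. The genes with the highest mean in crypts were *Defa24*, *Lyz1*, *Defa30*, *Defa21* and *Defa22*, all products of Paneth cells. In tumors the highest were *Gm23935*, *Eef1a1*, *Igkc*, *Fth1* and *Rplp1*, of which *Eef1a1* and *Rplp1* serve translation, *Fth1* encodes a chain of the iron store ferritin and *Igkc* is the constant region of the κ light chain. *Gm23935* is a short noncoding gene, and stood at 13259.7, 5532 and 9905 TPM in crypts and 28257, 37033 and 28173 in tumors.

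*Ctnnb1* itself was at 406, 409.7 and 306 TPM in crypts and 1022, 1281 and 1291 in tumors. All 3 tumors lay above all 3 crypts, as for 57.3% of all genes. Beside a median of 0.81 for all genes, its log2 difference was 1.68, short of the 4-fold rule. Over all alternative settings it lay between 0.87 and 2.09. *Apc*, whose product scaffolds the destruction complex, was at 21.1, 20.1 and 14.4 TPM in crypts and 38.3, 43.6 and 45.4 in tumors, a difference of 1.19 that ranged from 0.40 to 1.58 and was not called. *Ctnnb1* shares 14.6% of its exon bases with *Ulk4* on the opposite strand, and use of strand in the counting is not given in the sources used here, but *Ulk4* averaged only 0.137 TPM in crypts and 1.55 in tumors.

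The destruction complex as a whole gave 0 calls (0 to 1 higher over the alternatives) among the 13 of 14 members that passed the filter. Every tumor nevertheless lay above every crypt for all 13, against 57.3% of all genes. The median log2 difference of the complex was 1.15, beside 0.81 for all genes, and *Ctnnb1* was its most abundant member. Of 16 nuclear partners of β-catenin, 5 were higher and 0 lower, against 15.8% and 3.52% of all genes, with a median of 1.26. Over the alternatives 3 to 5 were higher. Of the 5 called higher as reported, 2, *Lef1* and *Tcf7*, are also on the list of Wnt inhibitors and feedback targets. *Lef1*, a factor that recruits β-catenin to DNA, was at 0.322, 0.318 and 0.181 TPM in crypts and 10.6, 11.8 and 18.3 in tumors (4.15). *Tcf7l1*, most often a repressor of the same sites, was at 0.333, 0.305 and 0.609 TPM in crypts and 15.2, 18.01 and 21.4 in tumors (4.35). *Tcf7l2*, the main TCF of adult intestinal epithelium, was at 19.7, 17.3 and 9.86 TPM in crypts and 22.4, 25.4 and 24.1 in tumors, and was not called. *Tcf7*, another TCF gene, was at 21.98, 17.6 and 10.6 TPM in crypts and 124, 119 and 162 in tumors (3.03). *Lef1* and *Tcf7l1* were thus below 1 TPM in each crypt library, whereas *Tcf7* was at levels like those of *Tcf7l2* there, and the sign of the *Tcf7l2* difference turned under the median of ratios and quantile normalization.

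All 14 members of the list of Wnt inhibitors and feedback targets were called higher, against 15.8% of all genes, with a median log2 difference of 3.68. Over the alternatives 10 to 14 were higher, with the fewest under the median of ratios, where *Axin2* (1.71), *Sp5* (1.96) and *Nkd2* (1.66) were among those below the 4-fold rule. Together they held 0.0173%, 0.0150% and 0.0138% of TPM in crypts and 0.336%, 0.345% and 0.472% in tumors. *Wif1*, which binds Wnt ligands outside the cell, was at 0.628, 0.823 and 0.262 TPM in crypts and 833, 757 and 931 in tumors (9.65). *Notum*, the carboxylesterase that strips the lipid from Wnt proteins, was at 0.0904, 0.332 and 0.661 TPM in crypts and 354, 386 and 495 in tumors (8.94). Both genes were near 0 in crypts, and *Wif1* was the most abundant member in tumors. *Notum* shares 29.4% of its exon bases with *Notumos* on the opposite strand, which averaged 0.240 TPM in crypts and 83.4 in tumors, so the levels of the pair are uncertain.

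*Nkd1*, which binds Dishevelled, was at 3.63, 3.33 and 5.07 TPM in crypts and 586, 539 and 722 in tumors (7.10). *Apcdd1*, a membrane inhibitor of Wnt receptors, was at 1.56, 2.71 and 3.19 TPM in crypts and 367, 488 and 1048 in tumors (7.63), with tumor 3 the highest. *Axin2*, a scaffold of the destruction complex and a widely used readout of the pathway, was at 69.5, 60.5 and 58.0 TPM in crypts and 330.3, 365 and 381 in tumors (2.51). Its difference was much smaller than that of *Wif1*, *Notum* or *Nkd1*, and it was the most abundant member in crypts. *Rnf43* and *Znrf3*, the ubiquitin ligases that remove Frizzled receptors, differed by 2.998 and 3.21. *Dkk2*, a ligand of LRP co-receptors, was listed at 0 in all crypts and stood at 121, 94.9 and 139.7 TPM in tumors. *Nkd2*, a relative of *Nkd1*, was at 0.271, 0 and 0.165 TPM in crypts and 1.71, 3.41 and 1.699 in tumors. It had the smallest log2 difference of the list, 2.07, which dropped below the 4-fold rule to 1.90 without crypt 2 and 1.79 without tumor 2, and also under several other scalings.

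*Sp5*, a transcription factor gene that is itself a direct target, was at 23.3, 17.4 and 17.4 TPM in crypts and 106, 128 and 171 in tumors (2.76). The RefSeq promoters of the list were searched on both strands for CTTTGAT, a core TCF/LEF motif, in the 250 bases before each start. For 9 of the 14 genes an entry was found, with 14 promoters, and only *Sp5* held a match, against 3.21% of 32851 promoters of this length in the table. The sequence is shown because the members of this list moved together, lies at chr2:70474673-70474922 on the plus strand of GRCm38.p6, just upstream of the gene, and has the motif in capitals.
Sp5: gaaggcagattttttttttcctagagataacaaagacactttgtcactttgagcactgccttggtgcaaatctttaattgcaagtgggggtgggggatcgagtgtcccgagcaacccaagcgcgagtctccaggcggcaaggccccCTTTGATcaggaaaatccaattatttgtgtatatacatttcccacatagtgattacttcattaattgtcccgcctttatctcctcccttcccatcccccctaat
The match is a description of these letters, and binding there was not measured.

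**Figure D2:**
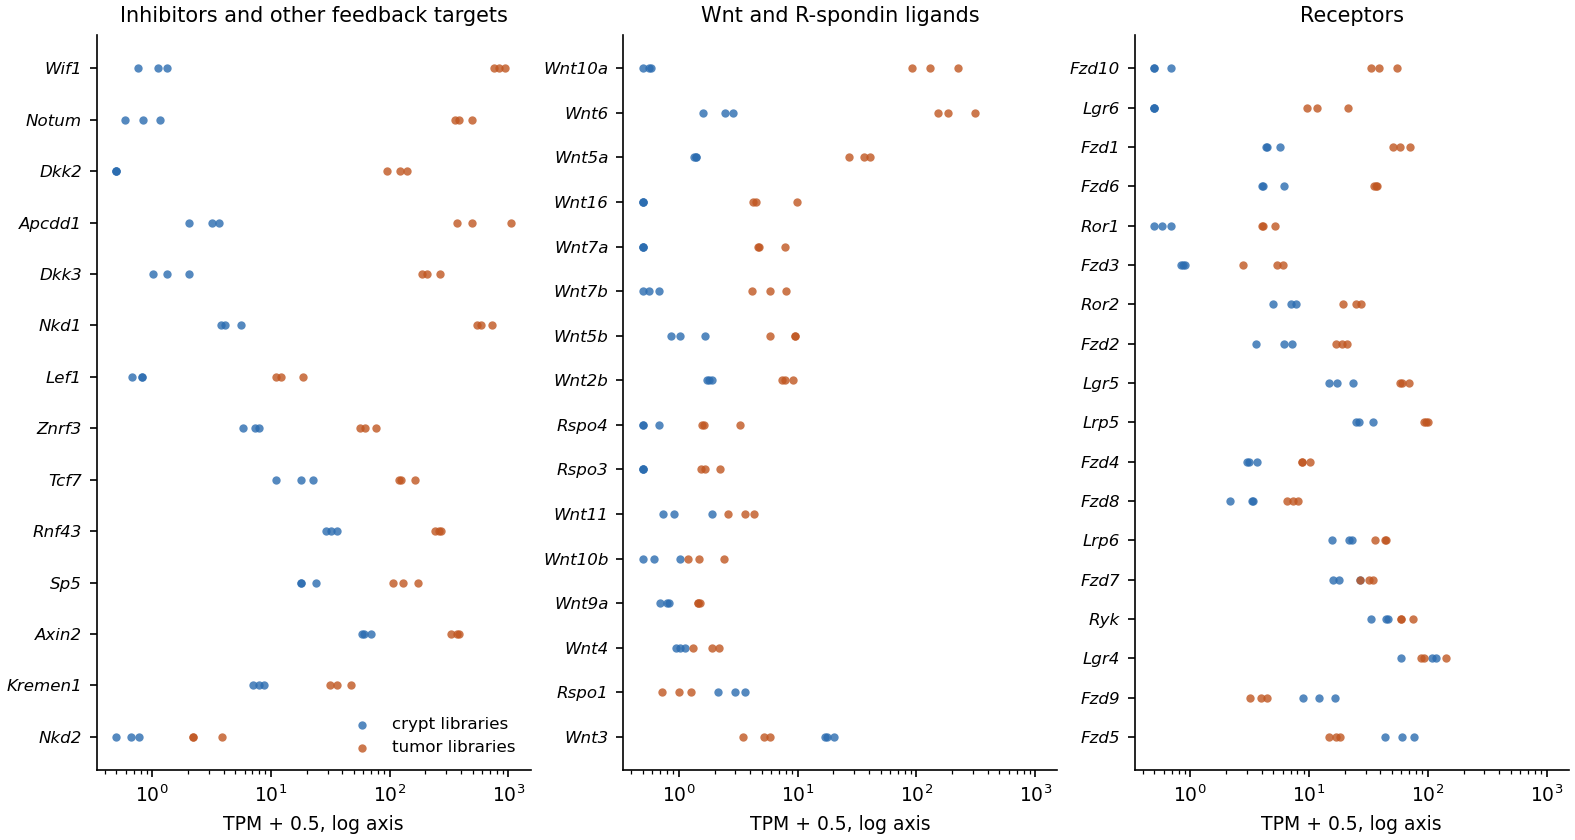
TPM + 0.5 on a log axis in each of the 3 crypt libraries (blue) and 3 tumor libraries (orange) for the Wnt genes that passed the filter, in panels for inhibitors and feedback targets, ligands, and receptors. In the panel of inhibitors all 14 genes have their 3 tumor points to the right of their 3 crypt points. *Wnt3* and *Fzd5* are among the genes with the opposite order.

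Wnt ligands and R-spondins, which potentiate them, were called higher for 8 and lower for 0 of 16 members that passed, out of 23. Among all genes 15.8% were called higher and 3.52% lower. The median log2 difference of the list was 2.02. Over the alternatives 3 to 12 were higher and 0 to 2 lower. *Wnt10a* was at 0.0882, 0 and 0.0645 TPM in crypts and 90.8, 129 and 223 in tumors (7.98). *Wnt6* was at 2.38, 1.09 and 1.96 TPM in crypts and 152, 183 and 310.4 in tumors (6.52), and was the most abundant ligand there. *Wnt5a*, a ligand known mainly for signaling without β-catenin and made largely in mesenchyme, was at 0.835, 0.894 and 0.896 TPM in crypts and 40.6, 35.6 and 26.7 in tumors (4.64). *Wnt3*, the ligand that Paneth cells supply to stem cells, was the most abundant ligand in crypts, at 17.3, 19.7 and 16.4 TPM against 2.96, 5.42 and 4.70 in tumors. Its difference of −1.94 was not called, but all tumors lay below all crypts, as for 9.7% of all genes. The ligand list thus differed between the tissues in its leading member.

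Of 18 receptor genes, 6 were called higher and 0 lower, against 15.8% and 3.52% of all genes. Over the alternatives 4 to 10 were higher and 0 to 2 lower. The median log2 difference was 1.77, beside 0.81 for all genes. *Fzd10* was at 0, 0 and 0.196 TPM in crypts and 32.5, 38.3 and 54.2 in tumors (6.21), and *Fzd1* and *Fzd6* differed by 3.64 and 2.96, the last not called under quantile normalization (1.97). *Fzd5*, a main Frizzled receptor of crypt epithelium, was at 75.6, 59.9 and 43.1 TPM in crypts and 17.6, 16.3 and 14.2 in tumors. That difference, −1.83, was below the size for a call, with every tumor below every crypt, as for 9.7% of all genes. *Lgr6*, a receptor of R-spondins, was listed at 0 in all crypts and stood at 9.05, 20.8 and 11.3 TPM in tumors. *Lgr4*, its relative and the most abundant member, was at 118, 108 and 59.0 TPM in crypts and 142, 87.9 and 92.8 in tumors, and the groups overlapped.

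Other targets of β-catenin in intestinal epithelium moved less evenly than the inhibitors. Of 14 that passed out of 16, 5 were called higher and 0 lower, against 15.8% and 3.52% of all genes. The median was 1.41, beside 0.81 for all genes, and 2 to 6 were higher over the alternatives. *Prox1*, a transcription factor gene also on the endothelial list, was at 2.49, 4.45 and 2.43 TPM in crypts and 191, 223 and 315 in tumors (6.08). *Sox4* and *Cd44* rose by 3.62 and 2.63, the last not called under the median of ratios (1.83) or quantile normalization (1.99). *Myc* was at 174, 79.9 and 38.2 TPM in crypts and 131, 87.9 and 149 in tumors, and the groups overlapped. *Sox9*, a factor of crypt progenitors and Paneth cells, was at 57.4, 52.5 and 29.2 TPM in crypts and 151, 137 and 157 in tumors, a difference of 1.72. *Mmp7*, the protease that matures α-defensins and the most abundant member, was at 1108, 1300.0 and 1208 TPM in crypts and 1422, 1133 and 1030.4 in tumors (−0.02), a difference whose sign turned under other scalings. It is a Paneth cell gene as well.

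Stem cell markers split. Of 15, 5 were higher, 1 was lower and 9 were not called, against 15.8% higher and 3.52% lower among all genes. Over the alternatives 3 to 6 were higher and 1 to 2 lower. The median log2 difference was 1.12, beside 0.81 for all genes. Of the 5 called higher as reported, 3, *Axin2*, *Rnf43* and *Znrf3*, are also on the list of Wnt feedback targets. *Lgr5*, the R-spondin receptor that marks crypt base stem cells, was at 16.7, 23.0 and 14.3 TPM in crypts and 57.4, 68.4 and 59.9 in tumors. Its difference of 1.78 was not called, and every tumor lay above every crypt, as for 57.3% of all genes. *Olfm4*, a secreted glycoprotein of the same cells in the small intestine, was at 3236, 2306 and 1324 TPM in crypts and 0.714, 0.649 and 0.570 in tumors (−10.88). It was the most abundant member in crypts and fell to under 1 TPM in each tumor. *Ascl2*, a transcription factor of these stem cells, was at 47.7, 59.1 and 26.0 TPM in crypts and 73.9, 115 and 90.03 in tumors, a pattern closer to *Lgr5* than to *Olfm4*; it was chosen after its values were seen. *Igfbp4*, a binding protein of insulin-like growth factors, was the most abundant in tumors and rose by 3.58.

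Genes of fetal or regenerating intestinal epithelium were called higher for 14 and lower for 0 of 18, with a median log2 difference of 4.84. They held 0.0334%, 0.0276% and 0.0186% of TPM in crypts and 0.447%, 0.418% and 0.444% in tumors. *Ly6e*, the most abundant member in both groups, was at 205, 161 and 95.6 TPM in crypts and 1124, 1317 and 1416 in tumors (3.12). *Anxa1*, *Clu* and *Ly6a*, chosen after their values were seen, rose by 7.75, 6.78 and 5.26. Some of these genes are also made by stroma and white cells, whose markers moved with the list, and the part of those cells was not tested.

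Paneth cells guard the crypt base with lysozyme and α-defensins. Of 32 Paneth genes, 28 were called lower and 0 higher, against 3.52% of all genes, and the median log2 difference was −5.55. The list held 13.9%, 18.4% and 29.1% of TPM in crypts and 0.804%, 0.860% and 0.935% in tumors. In these bulk libraries fewer cells of a type and less RNA per cell cannot be told apart. *Lyz1* was at 24764, 33046 and 28627 TPM in crypts and 2403, 3419.9 and 3947 in tumors (−3.17), and was the most abundant member in tumors. *Defa24* was at 24799, 31036 and 81979 TPM in crypts and 932, 801 and 836 in tumors (−5.54). *AY761184*, a defensin-like gene, was at 11202, 11582 and 21017 TPM in crypts and 1.68, 0.425 and 0 in tumors (−13.77). The fall was therefore far from even, with *Lyz1* and *Defa24* still abundant in tumors while *AY761184* was close to 0.

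The 4 Paneth genes that were not called included *Mmp7* and *Pla2g2a*, a secreted phospholipase, at 335, 390.4 and 339 TPM in crypts and 908, 822 and 1032 in tumors; *Nupr1* and *Habp2* were the others. Of 24 α-defensin genes compared with each other, 23 were at least 90% identical to another, up to 99.3%, so reads may be split among copies and the level of any single defensin is uncertain. Crypt 3 stood apart within its group, with *Defa24* far above crypts 1 and 2 and *Defa32* at 988, 7132 and 13021 TPM in crypts 1 to 3. The difference of *Defa32* was −10.17 as reported, −11.26 without crypt 1 and −9.40 without crypt 3.

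Absorptive enterocytes take up sugars, peptides, fat and bile acids. Of 33 small intestinal enterocyte genes, 32 were called lower and 0 higher, with a median log2 difference of −6.79, and every tumor lay below every crypt for all 33. Their share was 2.42%, 3.44% and 4.73% of TPM in crypts and 0.0400%, 0.0402% and 0.0399% in tumors. *Fabp2*, the intestinal fatty acid-binding protein, was at 4493, 7107 and 8746 TPM in crypts and 9.21, 2.21 and 2.499 in tumors (−10.57, or −11.16 without tumor 1). *Apoa1*, an apolipoprotein of lipid export, was at 3607, 4642 and 9217 TPM in crypts and 0.513, 0.518 and 0 in tumors (−12.71). *Sis*, the brush border sucrase-isomaltase, was at 882, 933 and 946 TPM in crypts and 0.0283, 0 and 0.0323 in tumors (−10.79). *Fabp1*, *Apoa4* and *Enpp7* were listed at 0 in all tumors. *Alpi*, a defining marker, fell by 8.57, and without tumor 1 it fell by 9.16. Others stayed well above 0, such as *Slc5a1*, a sodium-glucose transporter chosen after its values were seen, at 1285, 1206 and 1322 TPM in crypts and 41.5, 59.5 and 54.6 in tumors. Enterocyte transcripts were thus part of the isolated crypt libraries, and their remaining level in tumors differed from gene to gene.

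**Figure D3:**
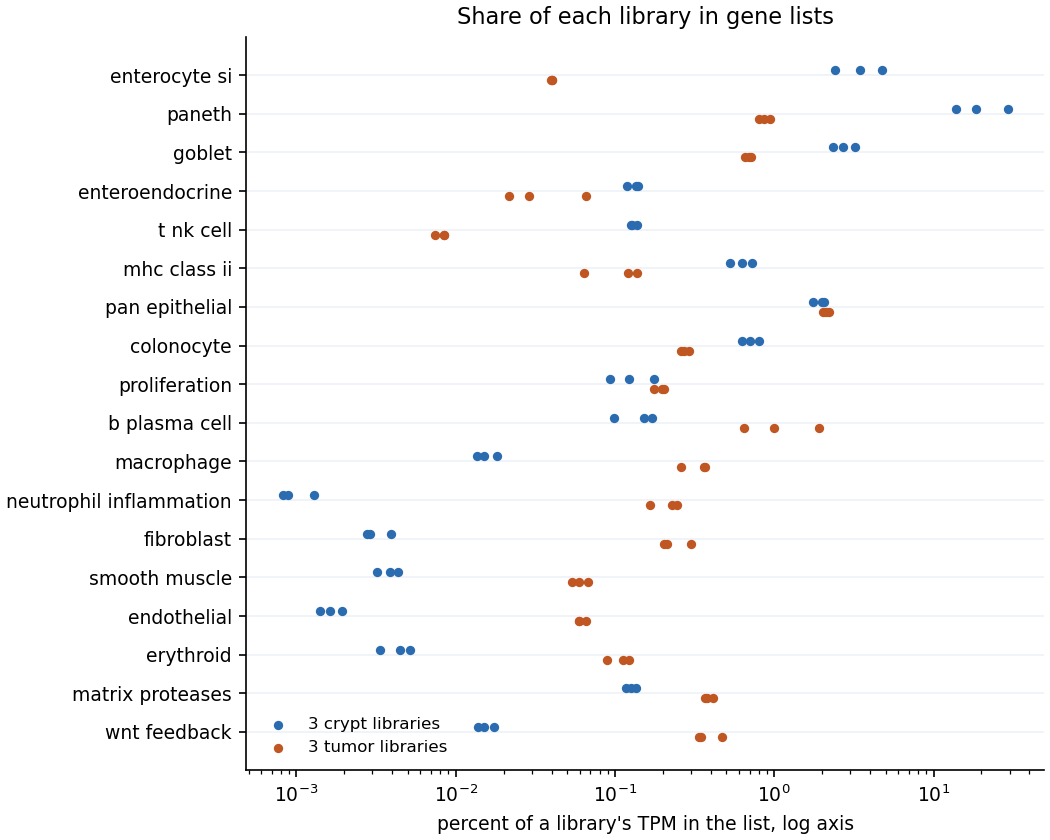
Percent of each library's TPM held by gene lists, on a log axis, for the 3 crypt libraries (blue) and the 3 tumor libraries (orange). Paneth genes hold 13.9% to 29.1% in crypts and 0.804% to 0.935% in tumors, the epithelial list lies near 2% in both groups, and fibroblast genes hold at most 0.00394% in crypts and at least 0.202% in tumors.

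Of 20 goblet cell genes, 1 was called higher, 6 lower and 13 neither, with a median log2 difference of −1.63 and shares of 2.33%, 3.19% and 2.70% in crypts and 0.652%, 0.691% and 0.712% in tumors. Every tumor lay below every crypt for 14 of the 20, against 9.7% of all genes. Over the alternatives 1 to 2 were called higher and 3 to 11 lower, with the most lower calls under the median of ratios. *Fcgbp*, a mucus protein, was at 2219, 3201 and 1724 TPM in crypts and 279, 191 and 175 in tumors (−3.45). *Muc2*, the main secreted mucin and the defining marker, was at 955, 1202 and 605 TPM in crypts and 517, 432 and 410.2 in tumors, apart but not called. *Best2*, a channel of colonic goblet cells, was listed at 0 in crypts and stood at 15.9, 34.4 and 32.1 TPM in tumors, and it was the 1 member called higher.

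Among 22 enteroendocrine genes, 14 were lower, against 3.52% of all genes, and 3 higher, near the share of 15.8%, with a median of −2.71. *Gip*, made by K cells of the proximal small intestine, was at 339, 228 and 419 TPM in crypts and 0.924, 0 and 0.351 in tumors (−8.56). *Pyy*, made by L cells of the distal gut, was at 10.7, 29.4 and 29.3 TPM in crypts and 121, 518 and 165 in tumors (3.34, or 2.72 without tumor 2). *Insl5*, a hormone of colonic L cells, was listed at 0 in crypts and stood at 6.13, 15.04 and 11.3 TPM in tumors. The third gene called higher was *Isl1*, an endocrine transcription factor gene (2.91, or 1.93 and not called under quantile normalization). Other hormones of the distal gut were lower, with *Gcg*, the proglucagon gene of L cells, at 78.8, 77.4 and 50.4 TPM in crypts and 4.25, 3.57 and 2.58 in tumors (−4.12) and *Nts*, neurotensin, at −3.02. *Isl1*, *Gcg* and *Nts* were chosen after their values were seen. The hormone genes of the distal gut named here thus went both ways. Of 14 tuft cell genes, 4 were lower, against 3.52% of all genes, and 2 higher, near the share of 15.8%, with a median of −1.23 (4 to 9 lower and 1 to 2 higher over the alternatives). *Rgs13* was at 36.7, 41.8 and 25.3 TPM in crypts and 0, 0.129 and 0.583 in tumors (−5.62), while *Avil*, an actin-binding protein, was at 18.8, 30.7 and 24.6 TPM in crypts and 215, 209.7 and 173 in tumors (3.005).

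Colonocyte genes did not move together. Of 25, 10 were called higher, 5 lower and 10 neither, against 15.8% higher and 3.52% lower among all genes. Over the alternatives 7 to 11 were higher and 4 to 8 lower. The median of 0.26 lay below the all-gene value of 0.81, but above it under quantile normalization and without the filter. It was below 0 under several other scalings. The list held 0.625%, 0.803% and 0.702% of TPM in crypts and 0.293%, 0.269% and 0.259% in tumors. *Guca2b*, the hormone uroguanylin, was at 1055, 1293 and 1480.4 TPM in crypts and 34.3, 37.6 and 44.1 in tumors (−5.02). *Car1* had the largest rise (8.60). *Car4*, a carbonic anhydrase of surface colonocytes, was at 214, 138 and 97.4 TPM in crypts and 15.4, 38.5 and 21.95 in tumors (−2.57). *Slc26a3*, a chloride-bicarbonate exchanger, differed by −2.03, a call that was lost without crypt 2 (−1.91) and without tumor 1 (−1.51), and with mitochondrial genes kept (−1.63) among other settings. The list was thus divided between both tissues.

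Transcription factors of gut position separated the groups. Of 12 distal factors that passed out of 14, 10 were called higher, against 15.8% of all genes, and 0 lower, with a median log2 difference of 4.19. Relative to all genes that median was 3.37, and it was 4.56 without tumor 1 and 2.56 without tumor 2 or tumor 3. Of 10 proximal factors 6 were lower, against 3.52% of all genes, and 2 higher, near the share of 15.8%. Their median was −2.62, with 5 to 6 lower and 1 to 2 higher over the alternatives. *Gata4*, a factor of the proximal small intestine, was at 104, 62.2 and 64.5 TPM in crypts and 0.271, 0.328 and 0.185 in tumors (−6.63). *Creb3l3*, the most abundant proximal factor in crypts, differed by −5.35. *Hoxa10* was at 0, 0.0611 and 0 TPM in crypts and 139.6, 99.8 and 77.4 in tumors (7.63), and *Hoxa13* was listed at 0 in crypts and stood at 69.6, 44.6 and 69.3 TPM in tumors. The 2 proximal factors that rose were *Sox2*, a foregut factor listed at 0 in crypts and at 3.39, 1.97 and 9.49 TPM in tumors, and *Onecut2*, which rose by 2.47. *Sox2* was not called with FPKM as deposited (1.77), nor *Onecut2* under the median of ratios (1.69) or quantile normalization (1.64). The distal *Hoxb9* was called at 2.83, but fell short at 1.91 without crypt 1, the lowest of the crypts, and at 1.99 under quantile normalization. *Hoxd8*, called at 2.04, fell short without crypt 1 (1.97), crypt 3 (1.95), tumor 2 (1.96) or tumor 3 (1.68), and under several other scalings.

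Tumor 1 differed from the other tumors in the *Hoxd* cluster, which was chosen after its values were seen. *Hoxd13* was listed at 0 in crypts and stood at 0.256, 232 and 227 TPM in tumors 1 to 3, *Hoxd10* at 0.466, 40.0 and 36.8, and *Hoxd9* at 0.495, 14.5 and 18.7. *Hoxa10* did not share this pattern and was highest in tumor 1. Of 16 factors of the whole gut, 5 were lower, against 3.52% of all genes, and 2 higher (0 to 4 over the alternatives), near the share of 15.8%, with a median of −0.10 that was above 0 when mitochondrial genes were kept in the sum and without crypt 3. *Foxa2*, chosen after its values were seen, was one of the higher ones at 2.08, and was not called without crypt 3 (1.90) or tumor 3 (1.87). It was also not called under several other scalings, such as the median of ratios (1.28) and quantile normalization (1.35). *Cdx2*, the intestinal homeobox factor, was at 325, 304 and 217 TPM in crypts and 35.0, 7.84 and 7.25 in tumors (−4.40, or −5.11 without tumor 1), and *Hnf4g*, a nuclear receptor of enterocytes, fell by 4.38. *Cdx1*, its relative, was at 505, 424 and 247 TPM in crypts and 183, 244 and 204 in tumors and was not called; it was chosen after its values were seen. *Elf3*, the most abundant of these factors, was at 584, 550.3 and 272 TPM in crypts and 593, 718 and 659 in tumors.

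**Figure D4:**
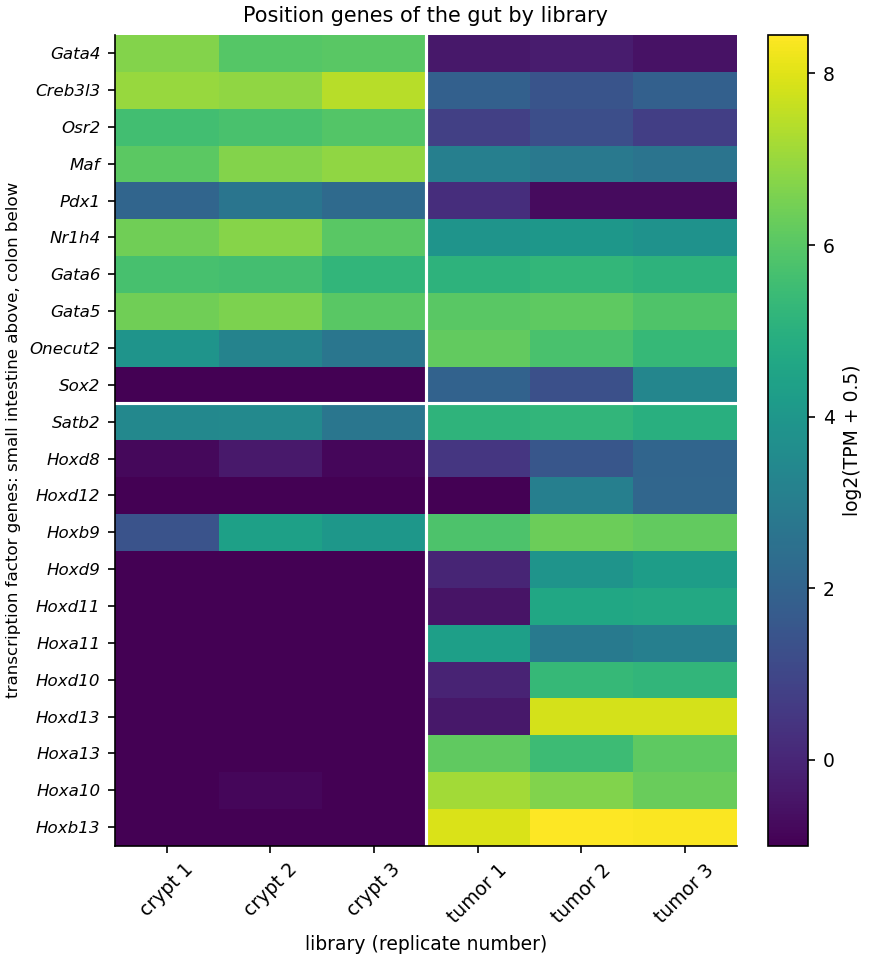
log2(TPM + 0.5) of transcription factor genes of gut position (proximal above the white line and distal below it) in the 3 crypt and 3 tumor libraries (columns), on a color scale. Most distal genes are bright in tumor columns and dark in crypt columns, apart from the *Hoxd* genes in tumor 1, such as *Hoxd13* at 0.256 TPM, and *Gata4* and *Creb3l3* are bright in crypts.

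Most stromal markers were called higher in tumors. Of 23 fibroblast and matrix genes, 21 were called higher and 0 lower (0 to 1 lower over the alternatives), with a median log2 difference of 5.12. Their share was 0.00394%, 0.00276% and 0.00291% in crypts and 0.298%, 0.213% and 0.202% in tumors. *Fn1*, fibronectin, was at 0.1304, 0.273 and 0.109 TPM in crypts and 663, 543 and 485 in tumors (9.71), and was the most abundant member there. The defining markers *Col1a1* and *Col3a1* were at 0.485 to 2.48 TPM in crypts and 228 to 469.8 in tumors. *Dcn*, a matrix proteoglycan, was the most abundant in crypts, at 13.4, 6.81 and 9.28 TPM, against 109, 91.9 and 109 in tumors. *Fap*, a fibroblast protease chosen after its values were seen, went the other way without a call, at 1.92, 1.87 and 1.32 TPM in crypts and 0.486, 0.943 and 0.511 in tumors.

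Of 11 smooth muscle genes 7 were higher and 0 lower (median 3.16), with 5 to 8 higher over the alternatives. Of 15 endothelial genes 13 were higher and 0 lower (4.53). Of 7 neural and glial genes that passed out of 13, 3 were higher and 0 lower (1.98). Over the alternatives 1 to 4 of these were higher and 0 to 1 lower. *Acta2*, the actin of smooth muscle and myofibroblasts, was at 0.733, 0.449 and 0.179 TPM in crypts and 348, 310.2 and 282 in tumors (8.40). *Cdh5*, the cadherin of endothelium, was at 0, 0.0475 and 0 TPM in crypts and 48.1, 48.6 and 43.9 in tumors (6.52), and *Plvap*, a protein of vessel fenestrae, rose by 6.77. The smooth muscle median relative to all genes, 2.35, was 3.72 without tumor 1, 3.27 without tumor 2 and 3.55 without tumor 3. *Mylk*, a myosin kinase of that list chosen after its values were seen, was at 30.6, 24.0 and 22.9 TPM in crypts and 26.7, 25.8 and 28.6 in tumors, so the groups overlapped. *Uchl1*, a neuronal ubiquitin hydrolase, rose by 3.46. Red cell genes were higher for 5 of 5 that passed out of 7, with *Hbb-bs*, a β-globin, at 24.7, 19.5 and 22.8 TPM in crypts and 563, 654 and 484 in tumors. These lists moved with every gene group that was higher in tumors, and their part in those groups was not tested.

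Proteases of the matrix and their inhibitors were higher for 19 and lower for 0 of 20, with a median log2 difference of 5.64. *Mmp10*, stromelysin 2, was at 0.379, 0.232 and 0.0925 TPM in crypts and 612, 586 and 535 in tumors (9.64). *Mmp7* was the most abundant of the list in both groups and the 1 member not called. Of 22 genes of BMP and TGFβ signaling, which oppose stem cell fate in the crypt, 13 were higher and 0 lower (2.25), with 6 to 17 higher over the alternatives. *Grem1*, a secreted BMP antagonist, was at 0.105, 0.0481 and 0.0768 TPM in crypts and 119, 69.2 and 69.5 in tumors (7.18). *Id1*, a BMP target and the most abundant of these genes, was at 187, 233 and 253 TPM in crypts and 660.1, 725 and 662 in tumors. It was not called, and every tumor lay above every crypt, as for 57.3% of all genes.

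Myeloid and inflammatory genes were higher. Of 14 macrophage genes that passed, 13 were called higher and 0 lower, with a median of 3.75, and of 20 neutrophil and inflammatory genes 19 were higher and 0 lower, with a median of 5.67. *Mmp8* and *Mmp9* are on the neutrophil list and on that of matrix proteases. *S100a9*, a calcium-binding protein of neutrophils, was at 0, 0.383 and 0.305 TPM in crypts and 383, 916 and 649.9 in tumors (9.75), and its partner *S100a8* was listed at 0 in crypts and stood at 229, 538 and 354 in tumors. *Lyz2*, the lysozyme of macrophages, was at 36.6, 34.9 and 28.1 TPM in crypts and 1307, 869.8 and 1585 in tumors (5.18). The defining macrophage markers *Csf1r* and *Adgre1* rose by 3.48 and 4.07. Mast cell genes were higher for 8 and lower for 0 of 12 (median 2.81), with 5 to 10 higher over the alternatives and the largest measured rise in *Tpsb2*, a tryptase (5.07).

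Lymphocyte genes went in different directions. Of 20 T and NK cell genes, 10 were lower and 0 higher (9 to 14 lower over the alternatives), with a median log2 difference of −2.15. Their shares were 0.137%, 0.125% and 0.129% in crypts and 0.00839%, 0.00745% and 0.00850% in tumors. *Gzma*, a granzyme of cytotoxic cells, was at 741, 700.0 and 701 TPM in crypts and 2.31, 4.88 and 4.31 in tumors (−7.42). The defining marker *Cd3e* was at 16.6, 17.6 and 12.4 TPM in crypts and 0.674, 0.942 and 1.005 in tumors (−3.54). *Trac*, the constant region of the T cell receptor α chain and the most abundant in tumors, was at 40.0, 38.2 and 25.4 TPM in crypts and 23.3, 28.5 and 30.4 in tumors, so the groups overlapped. The T and NK cell genes that were called were thus all higher in the isolated crypts.

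In the list of B and plasma cell genes 5 of 18 were higher and 6 lower (2 to 6 and 4 to 7 over the alternatives), and its median of 0.47 lay under the 0.81 of all genes, but above it without tumor 2 and without the filter, and below 0 under the median of ratios and quantile normalization. *Igha*, the heavy chain of IgA, was at 139, 147 and 115 TPM in crypts and 4995, 1545 and 2192 in tumors (4.27), and *Igkc* was at 723, 659.6 and 395 TPM in crypts and 11539, 3543 and 6149.5 in tumors (3.46). *Ighd*, the heavy chain of naive B cells, was at 43.1, 27.7 and 18.9 TPM in crypts and 0.891, 0.674 and 1.78 in tumors (−4.22). *Igha* and *Igkc* were thus highest in tumor 1, while *Xbp1* and *Pou2af1*, also of this list and chosen after their values were seen, differed by 0.04 and −0.03. Of 10 MHC class II genes 8 were lower and 0 higher (median −2.63), and *Cd74*, the invariant chain, was at 3539, 3962 and 2501 TPM in crypts and 607, 317 and 747 in tumors (−2.64). Of 24 interferon-stimulated genes 2 were higher and 1 lower (1 to 2 and 0 to 2 over the alternatives), against 15.8% and 3.52% of all genes, with a median of −0.12 that was above 0 when mitochondrial genes were kept in the sum, and *Ifit2*, with the largest rise of these, differed by 3.42. The other calls, chosen after their values were seen, were *Usp18* (2.09, or 1.87 and not called without crypt 3) and *Oas3* (−2.02). *Oas3* was not called without crypt 2 (−1.98), tumor 2 (−1.80) or tumor 3 (−1.72), or with mitochondrial genes kept (−1.62) among other settings. *Usp18* was also not called under several other scalings, such as quantile normalization (1.27).

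Genes of cell division were not called. Of 30 genes of DNA replication and mitosis, 0 were higher and 0 lower, and their median of 0.66 lay below the 0.81 of all genes, but above it under quantile normalization, without crypt 1 and without the filter. *Pcna*, the replication clamp and the most abundant, was at 178, 132 and 128 TPM in crypts and 231, 238 and 194 in tumors. *Mki67*, a marker of cycling cells, was at 105, 63.0 and 41.0 TPM in crypts and 85.9, 95.9 and 83.9 in tumors, so that crypt 1 lay above all tumors; it was chosen after its values were seen. Of 22 genes of ribosome biogenesis, again 0 were called, with a median of 0.61 that changed side under the same settings, and *Npm1*, the nucleolar protein nucleophosmin, was at 434, 296 and 229 TPM in crypts and 504, 469 and 454 in tumors.

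Metabolic genes differed by pathway. Of 29 genes of fat oxidation and xenobiotic metabolism, 16 were lower and 2 higher, against 3.52% and 15.8% of all genes. Over the alternatives 14 to 18 were lower and 1 to 2 higher. The median log2 difference was −2.28. *Cyp4f14*, a cytochrome P450 and the most abundant in crypts, was at 685, 888 and 822 TPM in crypts and 11.3, 10.3 and 8.62 in tumors (−6.24). *Cyp3a25*, another P450, was listed at 0 in all tumors and stood at 103, 181 and 289 TPM in crypts. Of 22 genes of glycolysis and the hypoxia response, 8 were higher and 0 lower, against 15.8% and 3.52% of all genes. The median was 1.21, beside 0.81 for all genes, with 4 to 9 higher over the alternatives. *Slc16a3*, a lactate exporter, was at 4.75, 4.96 and 9.13 TPM in crypts and 108, 138 and 111 in tumors (4.19), while *Ldha*, lactate dehydrogenase A, was at 959, 788 and 710.0 TPM in crypts and 878, 997 and 789.5 in tumors. *Gapdh*, also of this list, was called at 2.26 but not without tumor 2 (1.38) or under several other scalings, and its reads may be shared with near-identical copies.

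Of 14 Reg family and antimicrobial genes that passed, 3 were higher, a share near the 15.8% of all genes, and 4 lower, with a median of −0.41. *Reg3a* and *Reg3b*, lectins that bind bacteria, were lower, *Reg3a* at 115, 115 and 213 TPM in crypts and 2.05, 0.777 and 0.292 in tumors (−6.69). *Lcn2*, the siderophore-binding lipocalin, was at 0.996, 1.45 and 0.121 TPM in crypts and 301, 311 and 218 in tumors (7.81). *Lypd8*, a colonic surface protein that keeps bacteria off the epithelium and the most abundant member in tumors, was at 4822, 4471 and 2085 TPM in crypts and 5435, 4657 and 4962 in tumors, and was not called.

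In the Notch pathway, which sets absorptive against secretory fate, 6 of 15 genes were higher and 1 lower, against 15.8% and 3.52% of all genes. The median was 1.16, beside 0.81 for all genes, with 3 to 7 higher and 1 to 2 lower over the alternatives. *Dll1*, a ligand of secretory progenitors, was at 43.7, 64.1 and 48.4 TPM in crypts and 6.22, 5.62 and 5.14 in tumors (−3.08), and *Hey1*, a target, rose by 4.42. *Hes6*, the most abundant, was at 95.4, 108 and 95.1 TPM in crypts and 525, 635 and 601 in tumors (2.55, or 1.75 and not called under the median of ratios). Of 12 EGF receptor family genes that passed, 3 were higher (1 to 6 over the alternatives) and 0 lower (1.62), shares near the 15.8% and 3.52% of all genes, among them *Nrg1*, a ligand, by 4.82, whereas *Erbb3*, the most abundant, was at 119, 127 and 124 TPM in crypts and 126, 133 and 114 in tumors. Of 8 squamous genes that passed out of 14, 7 were higher and 0 lower (3.52), with 4 to 7 higher over the alternatives. Genes near 0 in crypts could pass the filter only through their tumor values. Without the filter 7 of 14 were higher, and the median was 1.21, where that of all genes was 0. *Krt14*, a basal keratin, was at 0.867, 0.909 and 0.725 TPM in crypts and 54.9, 102 and 51.2 in tumors (5.64), but its usual partner *Krt5*, a defining marker, was listed at 0 in crypts and reached at most 0.110 TPM in tumors.

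The comparison was repeated in the 6 libraries with ieCtnnb1 deleted, APCmin/+;ieCtnnb1KO tumors against ieCtnnb1KO crypts, which share no sample with the libraries described so far but share their organ, disease and preparation. Of 19784 genes that passed there, 2992 (15.1%) were higher in tumors and 730 (3.69%) lower, and the median of all genes was 0.62. The calls in common were 2535 higher genes, which are 78.8% of the calls with the enhancer intact and 84.7% of those with it deleted, and 591 lower genes, 82.8% and 81.0%. No gene, 0 in all, was called in opposite directions. All 14 Wnt inhibitors and feedback targets were called higher there as well, with a median log2 difference of 3.47 beside 3.68, and 32 enterocyte genes were called lower in each comparison. *Ctnnb1* differed by 1.38 with the enhancer deleted and 1.68 with it intact, and *Apc* by 0.88 and 1.19. Whether the enhancer alters the distance between the tissues was not tested.

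Goblet genes, chosen after the values were seen, had 1 of 20 called lower in the enhancer-deleted libraries against 6 with it intact, and a median of −0.53 against −1.63. *Tff3*, a trefoil peptide of goblet cells and the most abundant in crypts, differed by −2.77 with the enhancer intact and by −1.78 with it deleted. Fibroblast genes had a median of 6.35 against 5.12. The difference between these values was not tested.

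**Figure D5:**
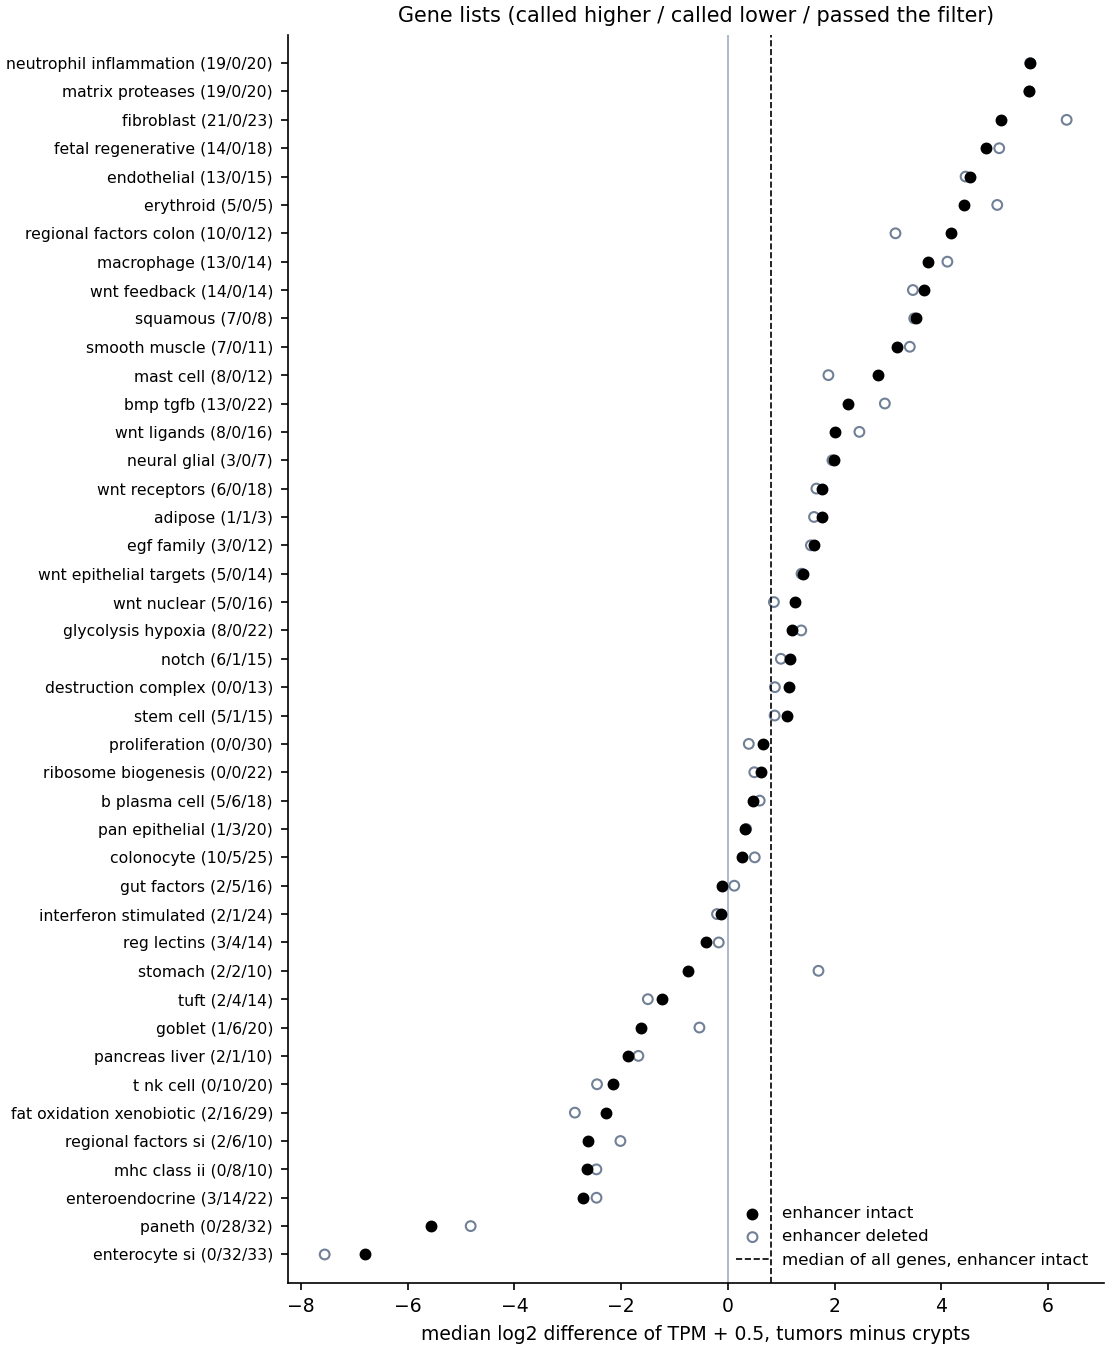
Median log2 difference of TPM + 0.5, tumors minus crypts, of each gene list, with the enhancer intact (filled points) and deleted (open points). Numbers beside each name are genes called higher, called lower and passing the filter with the enhancer intact, and the dashed line is the median of all genes, 0.81. Enterocyte and Paneth lists lie at the bottom, at −6.79 and −5.55, and neutrophil and matrix protease lists at the top, at 5.67 and 5.64.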

How the data were processed

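Total RNA was measured by RNA-seq, and levels were deposited by the authors as FPKM, fragments per kilobase of gene and a fixed number of mapped fragments, in 2 tables, for tumors and for crypts. The submitters' notes name cutadapt, HISAT2, Cufflinks 2.2.1, DESeq2 and the mm10 build, whereas the methods name featureCounts for counting, so the tool behind the values, like the use of strand, is not given in the sources used here. Values were joined on the gene identifier, and 37 mitochondrial genes were left out before rescaling. Fragments were recovered from the steps of low values with a tolerance of 0.05 fragments, and 100% of the values looked at came out whole. Samples were grouped by label. No statistical test was run. The pseudocount and the filter were both 0.5 TPM, and 44 gene lists were described by counts and medians. The members and lists were chosen with earlier results of these data known. Named genes were the 12 protein-coding genes per direction with the largest difference, the 5 highest per group, the called members with the largest difference and the most abundant member of each list described, any Wnt list member, and *Ctnnb1* and *Apc*. The values of 1 gene that this rule takes are not reported. Python 3.11.15, numpy 2.4.6, pandas 2.3.3 and matplotlib 3.10.9 were used. The alternatives were other scalings, pseudocounts, filters, centers and fold limits, and leaving out each library.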

Additional observations from a re-analysis of the deposited data

How the results depend on the processing

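The number called higher in tumors, 3216 as reported, was 1729 with FPKM as deposited, 2064 under the median of ratios and 1746 under quantile normalization, and the number called lower, 714 as reported, was 1118 and 1317 under the last 2. The median of all genes shifted too, from 0.81 to 0.50, 0.06 and −0.05 in that order. At least 2-fold gave 7600 and 1327, and at least 8-fold 1557 and 395, by construction. The other alternatives gave 2475 to 4305 higher and 565 to 924 lower, and leaving out 1 library 3212 to 3413 and 709 to 759. With the enhancer deleted, where alternatives were chosen after seeing the data, 2992 higher and 730 lower genes became 1856 higher with FPKM as deposited, 1861 and 1248 under quantile normalization, 6335 and 1475 at 2-fold and 1580 and 393 at 8-fold. Leaving out 1 of those libraries gave 2978 to 3266 and 699 to 792. Of 398 called genes looked at, 19 lost the call when 1 library was left out, and of 719 genes, 0 that were called changed sign. List medians, given here as log2 relative to the median of all genes, stayed within the spread between libraries for 688 of 836 values and moved beyond it for 148. With FPKM as deposited they were Wnt feedback 2.35, Wnt ligands 1.45, fetal 3.64, enteroendocrine −2.94, tuft −1.71, enterocyte −7.10, proximal factors −2.74, smooth muscle 3.51, endothelial 2.75, neural 0.99, macrophage 2.53, neutrophil 3.88 and mast cell 1.42. Further values there were matrix proteases 3.85, fat oxidation −2.84, BMP and TGFβ 1.05, squamous 1.71, adipose −1.11 and erythroid 3.35. With mitochondrial genes kept they were Wnt ligands 0.99, fetal 4.20, smooth muscle 1.94, endothelial 3.52, mast cell 1.77, matrix proteases 4.63 and adipose 0.60. Without the 50 highest genes in the sum they were Wnt ligands 1.48, smooth muscle 2.84, endothelial 4.01, mast cell 2.29, matrix proteases 4.96, squamous 3.18 and adipose 1.34. Under the median of ratios they were Wnt ligands 1.499, enteroendocrine −3.09, smooth muscle 3.81, mast cell 2.22 and adipose 1.35. Under quantile normalization they were Paneth −5.45, goblet −1.52, enteroendocrine −3.24, enterocyte −7.24, colonocyte 0.022, epithelial 0.60, smooth muscle 3.71, neural 0.93, MHC class II −2.80, Reg −0.59, glycolysis 1.18, fat oxidation −2.90 and adipose 1.14. Scaled to the epithelial list it was smooth muscle 3.60. At a pseudocount of 0.1 they were Wnt feedback 3.39, Wnt ligands 2.57, enteroendocrine −4.09, tuft −2.40, enterocyte −8.66, proximal factors −4.05, distal factors 5.31, fibroblast 5.07, smooth muscle 4.45, endothelial 4.997, macrophage 3.23, neutrophil 5.99 and mast cell 3.49. Further values there were T and NK cell −3.44, matrix proteases 5.77, fat oxidation −3.68, BMP and TGFβ 1.89, squamous 4.67 and adipose 2.38. At a pseudocount of 1 they were Wnt ligands 0.86, enteroendocrine −3.13, smooth muscle 1.59, endothelial 3.17, neural 0.82, macrophage 2.69, neutrophil 4.33, mast cell 1.55, T and NK cell −2.56, matrix proteases 4.28, squamous 1.94 and adipose 0.46. Without the filter they were Wnt feedback 3.68, other Wnt targets 1.20, destruction complex 1.14, nuclear partners 1.26, Wnt receptors 1.77, stem cell 1.12, fetal 4.84, Paneth −5.55, goblet −1.63, enteroendocrine −2.36, tuft −1.21, enterocyte −6.78 and colonocyte 0.26. Further values there were proximal factors −2.50, gut factors −0.10, epithelial 0.33, fibroblast 5.12, smooth muscle 3.16, endothelial 4.53, neural 0.65, macrophage 3.63, neutrophil 5.63, mast cell 2.81, T and NK cell −2.15, B and plasma cell 0.47 and MHC class II −2.63. Further values there were interferon −0.12, proliferation 0.66, ribosome biogenesis 0.61, matrix proteases 5.64, Reg −0.42, glycolysis 1.21, fat oxidation −2.28, BMP and TGFβ 2.25, Notch 1.08, squamous 1.21, adipose 0.066 and erythroid 4.09. At a mean of at least 1 they were Wnt ligands 2.52, fetal 4.23, enteroendocrine −3.83, smooth muscle 3.51, T and NK cell −3.43 and adipose −0.92. Over protein-coding genes it was T and NK cell −3.42. With group medians they were neural 0.98, matrix proteases 4.97 and adipose 1.13. Leaving out 1 library moved these by more than the spread: adipose 0.83 to 1.18, fat oxidation −3.35 to −2.96, fetal 3.91 to 4.22, macrophage 2.79 to 3.15, mast cell 1.78 to 2.22, matrix proteases 4.70 to 4.89, neural 0.75 to 1.38, smooth muscle 2.24 to 3.72 and Wnt ligands 1.16 to 1.59. The order against all genes turned for adipose with FPKM as deposited and at a mean of at least 1, for colonocyte and epithelial under quantile normalization, for proliferation and ribosome biogenesis there and without crypt 1, and for B and plasma cell without tumor 2. It also turned for these lists other than adipose without the filter. There the median of all genes was 0, as many genes are listed at 0 in every library, and the list values are then the medians themselves. Elsewhere, fold limits aside, the cause was not tested. Depth limits genes near 1 fragment, which is up to 0.121 TPM on a gene of 2000 bases. No paired analysis was possible because no result comes from a test and libraries of the same replicate number come from mice of different genotypes.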

Other observations

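Stomach and pancreas transcripts were uneven among the crypt libraries, higher in crypts 1 and 2 than in crypt 3, and the genes given here were chosen after their values were seen. *Tff2*, a trefoil peptide of the stomach, was at 412, 164 and 2.73 TPM in crypts 1 to 3 and 0, 1.10 and 0 in tumors. *Gkn2*, a gastrokine of the gastric surface, was at 41.4, 46.1 and 0 TPM in crypts, and the defining marker *Pgc*, a pepsinogen, at 58.8, 42.0 and 5.39. The stomach list held 0.0699%, 0.0375% and 0.00397% of TPM in crypts and 0.0122%, 0.0106% and 0.0107% in tumors, with 2 of 10 genes called higher, 2 lower (2 to 3 and 2 to 4 over the alternatives) and a median of −0.75, beside 15.8% and 3.52% of all genes. Relative to all genes that median was −1.56, and −2.24 without crypt 3. With the enhancer deleted the counts were 3 and 0 and the median 1.70. *Ctrb1*, chymotrypsinogen B, was at 11.4, 17.97 and 0.363 TPM in crypts and at most 0.243 in tumors, and *Cpa1*, the defining marker of pancreas, at 2.74, 2.17 and 0 in crypts and 0 in all tumors. Of 10 pancreas and liver genes 2 were called higher, near the 15.8% of all genes, and 1 lower (2 to 3 and 1 to 7 over the alternatives), with a median of −1.87, which relative to all genes was −2.68, −3.56 without crypt 3 and −1.90 without crypt 2. The higher ones were *Alb*, albumin, at 0, 0.938 and 0.340 TPM in crypts and 232, 63.9 and 112 in tumors, and *Cela1*, an elastase, at 17.2, 18.3 and 10.01 in crypts and 176, 198 and 188 in tumors.

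*Fabp6*, the bile acid-binding protein of the ileum, was at 456, 3026 and 6538 TPM in crypts 1 to 3 and 3.09, 0.892 and 3.02 in tumors, and *Slc10a2*, the ileal bile acid transporter, at 49.2, 216 and 146 in crypts and 3.92, 6.43 and 6.27 in tumors. Both were chosen after their values were seen, and crypt 1 was the lowest crypt for each. Of 3 adipose genes that passed out of 8, 1 was called higher and 1 lower (0 to 2 and 1 over the alternatives), and *Adipoq*, the defining marker, was listed at 0 in all 6 libraries. Of 5 genes on the list of Y-linked genes and *Xist*, 0 were called (0 to 1 higher and 0 to 1 lower over the alternatives).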
